A study of Mus musculus with 9 samples.

Results

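The 47 genes described here encode RNA-binding proteins that steer splicing, stability, transport and translation of mRNA in neural cells, other than the Pumilio proteins themselves. They were taken by name from 15 families: Elavl, Celf, Nova, Rbfox, Musashi, Fmr1, Igf2bp, Ptbp, Khdrbs with Qk, Pcbp, Cpeb, Lin28, Zfp36, Staufen and the poly(A)-binding proteins. Of the 47, 45 had an array feature of their own, among 22180 genes measured in all. Igf2bp2 had no feature under its symbol and Igf2bp1 shared its feature with the microRNA gene Mir3063. Where a gene had several features, the one with the highest mean over the 9 arrays was read. The tissue was embryonic cortex, taken on days 12 to 13 from wild-type mice of the CD1 stock, and no allele, drug or transgene separates the groups. One group was total RNA of the lysed cortex (input), 1 was RNA recovered with normal rabbit IgG, and 1 was RNA recovered with a rabbit antibody to Pum2. Each had 3 biological replicates on 3 Mouse Gene 2.0 ST arrays, and the labels do not say how many embryos went into a replicate. A value below is an RMA log2 signal unless it is called a difference, and differences were taken between the deposited values as they stand. Array medians over the 22180 genes ran from 6.05 to 6.10, but over all 41345 features they were 5.369 to 5.397 for Pum2, 5.48 to 5.52 for input and 5.54 to 5.57 for IgG.

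An RNA-binding protein is made from an mRNA that can itself be bound, spliced or held back by other such proteins, and many of these families regulate their own transcripts. Pum2 is a Pumilio protein that binds short sequence elements in mRNAs, mostly in the 3′ untranslated region, and lowers their translation or stability. In the embryonic cortex, Musashi and Ptbp1 are typical of dividing precursors, while neuronal Elavl, Nova, Celf and Rbfox proteins come up as neurons are made. Poly(A)-binding proteins sit on mRNA tails and assist translation, whereas Pumilio proteins recruit deadenylases that shorten the same tails.

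Replicate arrays resembled each other closely, with Pearson r from 0.994 to 0.996 over genes, which are not independent replicates. Over the 45 genes the median SD between replicates was 0.071 for input, 0.079 for IgG and 0.092 for Pum2 (n = 3 each). Of 8 cortex markers, 7 had a feature of their own, and all 7 lay at or above the median signal of all genes. Markers of other cells were present too. The summed signal of 5 endothelial markers was 10.56 to 10.64 in input, 10.50 to 10.94 in IgG and 11.21 to 11.34 in Pum2, and that of 6 meningeal and mesenchymal markers was 10.16 to 10.22, 10.29 to 10.56 and 10.75 to 10.90 (log2). All 5 and all 6 were at or above the median signal. The summed signal of 3 measured globin genes went the other way, with 11.59 to 11.96 in input, 11.07 to 11.79 in IgG and 10.57 to 11.18 in Pum2, and 5 microglial markers, 3 of them at or above the median signal, gave 8.58 to 8.72, 8.58 to 8.77 and 8.82 to 8.89. The 7 cortex markers themselves summed to 12.78 to 12.80, 12.88 to 13.00 and 13.03 to 13.18, and 4 measured markers of the ganglionic eminence to 8.25 to 8.44, 8.22 to 8.54 and 8.68 to 8.92. Single markers did not all follow the sums. Against IgG, 12775 of all 22180 genes had positive differences. So did 6 cortex markers, 3 of them called higher, and Neurod6 fell (-0.76 ± 0.11). In the ganglionic eminence list 3 were positive, 1 of them called higher, and Gad2 fell (-0.41 ± 0.11). Of the microglial markers 3 were positive and 2 negative, with Csf1r the highest (0.92 ± 0.18) and the only one called. The part of these cells in the differences below was not tested. The RNA came from lysed whole cortex. Number of cells of a type, RNA per cell and recovery of RNA in a precipitate cannot be told apart here.

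Against nonspecific IgG, the background of the precipitation, 10 of the 45 genes were higher in the Pum2 precipitate and 12 were lower (limma, adjusted p under 0.05 over all 22180 genes). Among all genes, 19.4% were called higher and 11.4% lower. The genes that rose were Msi1, Pcbp4, Ptbp1, Pcbp3, Pcbp1, Fxr2, Khdrbs1, Nova2, Celf3 and Ptbp2, and those that fell were Stau2, Pabpn1, Pabpc1, Pabpc4, Cpeb4, Pcbp2, Celf2, Elavl1, Elavl3, Zfp36l1, Khdrbs3 and Khdrbs2. At a change of at least 1.5-fold, 3 remained higher (Msi1, Pcbp4 and Ptbp1; 6.53% of all genes) and 5 lower (Stau2, the 3 poly(A)-binding genes and Cpeb4; 4.99% of all genes). All 3 arrays of Pum2 lay above all 3 of IgG for 14 of the 45 (25.9% of all genes) and below them for 13 (15.4%). The share of calls among all genes that were higher, 63%, moved to 46.9% when brighter genes set the centre of each array, and to 79.1% with quantile normalization over all features. That last scaling took the median difference of all genes from 0.043 to 0.19.

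The 45 genes went both ways in nearly equal numbers. Their median difference was 0.025 against 0.043 over all genes. With quantile normalization over the named genes it was -0.036 against 0.026 over all genes. Centring on the brighter genes moved both medians alike, to -0.070 for the 45 and -0.051 for all genes. Single differences ran from -0.98 for Stau2 to 0.78 for Msi1. Most of the 45 gave bright signals, and 41 lay at or above the median signal. Among genes that bright, 34.1% were called higher and 18% lower, where the 41 gave 24.4% (10) and 29.3% (12). None of the 4 dimmer members, Cpeb1, Cpeb3, Lin28a and Lin28b, was called in any comparison by limma, and none had an unadjusted p below 0.05 against IgG, although Cpeb3 and Lin28b did so for Pum2 over input and Cpeb3 for IgG over input.

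**Figure D1:**
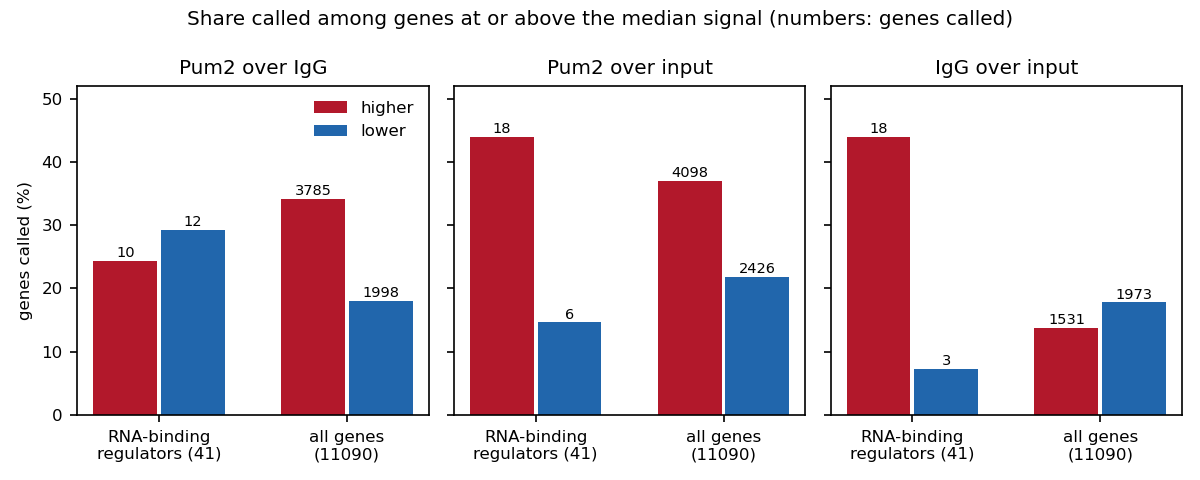
Bars give the percentage of genes called higher (red) or lower (blue) by limma at an adjusted p under 0.05, among genes no dimmer than the median gene, for the 41 RNA-binding regulators and all 11090 such genes; the number over each bar is the count of genes. Against IgG the regulators have 12 lower and 10 higher calls, and all such genes 1998 and 3785. The order among the regulators depends on the fit. With these bright genes fitted alone, they had 13 lower and 14 higher calls, and all such genes 2330 and 4344.

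Poly(A)-binding proteins were the only family with several measured members in which every one fell against IgG. Pabpc1 encodes the main cytoplasmic protein of the mRNA tail. Its signal was 8.66, 8.72 and 8.66 on the input arrays, 8.95, 9.08 and 8.84 on the IgG arrays and 8.09, 7.90 and 7.99 on the Pum2 arrays. The 3 Pum2 arrays were below all 6 others, and the difference was -0.97 ± 0.08 from IgG and -0.69 ± 0.08 from input (log2 difference ± SE, limma adjusted p = 2.68e-05 and 1.14e-04). Pabpn1 encodes the nuclear protein that controls tail length. Signals for it were 10.59, 10.59 and 10.59 with input, 11.04, 10.91 and 10.94 with IgG and 10.02, 9.92 and 10.04 with Pum2. The groups did not overlap, and Pum2 stood at -0.97 ± 0.07 from IgG and -0.60 ± 0.07 from input (adjusted p = 9.82e-06 and 8.84e-05). Pabpc4 encodes a second cytoplasmic form, and it was measured with more scatter, at 7.84, 8.002 and 7.61 in input, 7.63, 7.66 and 7.93 in IgG and 6.83, 6.80 and 7.02 in Pum2. Input and IgG overlapped here, and the Pum2 arrays were again the lowest, by -0.86 ± 0.12 and -0.94 ± 0.12 (adjusted p = 4.27e-04 and 1.72e-04).

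Nonspecific IgG carried more of Pabpn1 than input did (0.37 ± 0.07, adjusted p = 0.00475), and somewhat more of Pabpc1 (0.28 ± 0.08, adjusted p = 0.0469). For Pabpc4 that difference was -0.08 ± 0.12 (adjusted p = 0.727). The Pabpc1 call in IgG over input ended when any single array was left out other than IgG replicate 3, with values between 0.21 and 0.30. It ended too in a fit of IgG and input alone (0.28). Against input, which has no precipitation step, each of the 3 remained lower by 1.52-fold to 1.91-fold.

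Staufen proteins carry mRNA along dendrites, and their transcripts parted. Stau2, the form enriched in brain, gave 9.22, 9.10 and 9.10 on input, 9.20, 9.32 and 9.28 on IgG and 8.24, 8.33 and 8.29 on Pum2 arrays. All 3 Pum2 arrays lay well under the rest, a fall of 1.98-fold from IgG (-0.98 ± 0.07, adjusted p = 1.1e-05) and 1.81-fold from input (-0.86 ± 0.07, adjusted p = 1.23e-05). Stau1, the widely expressed form, read 9.86, 9.74 and 9.74, then 9.68, 9.66 and 9.79, then 9.77, 9.67 and 9.77 in the same order of groups. Its arrays overlapped throughout, with a difference of 0.03 from IgG and a 95% interval of -0.14 to 0.19.

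Cpeb proteins bind cytoplasmic polyadenylation elements and lengthen or hold back the tails of stored mRNAs. Of the 4, only Cpeb4 was called against IgG, at -0.71 ± 0.10 (adjusted p = 3.29e-04). Its signals were 7.87, 7.89 and 7.78 in input, 8.10, 8.29 and 8.26 in IgG and 7.69, 7.40 and 7.44 in Pum2. The Pum2 arrays were lowest and the IgG arrays highest, without overlap. The fall from input was smaller (-0.34 ± 0.10, adjusted p = 0.0179), and its call ended without input replicate 1 (-0.33) or 2 (-0.32), without Pum2 replicate 2 (-0.29) or 3 (-0.31), and with quantile normalization over all features (-0.22). Cpeb4 in IgG exceeded input by 0.37 ± 0.10 (adjusted p = 0.0233), a call lost without input replicate 1 (0.38) or 3 (0.33) or IgG replicate 2 (0.33) or 3 (0.35). Cpeb2 was as high in IgG as in Pum2, with differences from input of 0.61 ± 0.08 and 0.57 ± 0.08 (adjusted p = 6.14e-04 and 2.46e-04), and -0.04 between the precipitates (95% interval -0.22 to 0.13). Cpeb1 and Cpeb3 gave 0.07 ± 0.12 and -0.01 ± 0.12 against IgG at dim signals, and without input replicate 3 Cpeb3 passed the threshold over input in Pum2 (0.42) and in IgG (0.43).

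**Figure D2:**
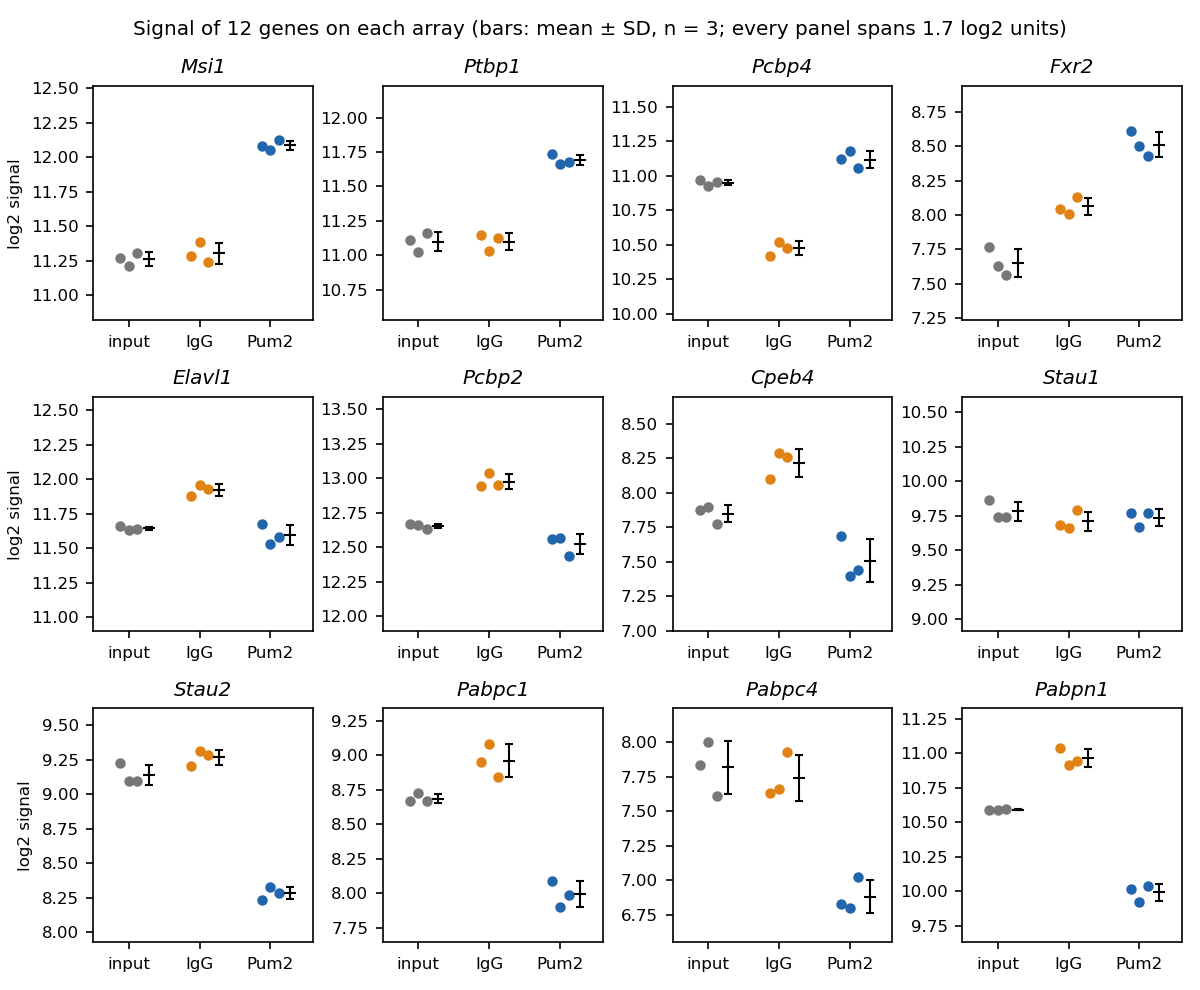
Each point is the log2 signal of 1 array (grey input, orange IgG, blue Pum2, 3 arrays a group), with the mean and SD beside it as a black bar; every panel spans the same height. Msi1 and Ptbp1 stand high only in the Pum2 arrays, Stau2 and the 3 poly(A)-binding genes stand low only there, and Stau1 is level across groups.

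Musashi proteins keep neural precursors in division and act mainly by restraining translation. Msi1 had the largest rise of the 45. Its signals were 11.27, 11.21 and 11.31 in input, 11.28, 11.39 and 11.24 in IgG and 12.08, 12.05 and 12.12 in Pum2. Input and IgG overlapped while the Pum2 arrays lay apart, by 1.72-fold over IgG (0.78 ± 0.07, adjusted p = 3.43e-05) and 1.77-fold over input (0.82 ± 0.07, adjusted p = 1.38e-05). Msi2, its close paralog, differed from IgG by 0.09 (95% interval -0.09 to 0.27) and exceeded input in either precipitate, by 0.54 ± 0.08 with Pum2 and 0.45 ± 0.08 with IgG (adjusted p = 3.77e-04 and 0.00327). A dimmer second feature of Msi2 gave -0.25 ± 0.12 against IgG (adjusted p = 0.16 in a fit of all 41345 features). In that fit it was not called over input either, at -0.004 ± 0.12 with Pum2 and 0.25 ± 0.12 with IgG (adjusted p = 0.986 and 0.233).

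Ptbp proteins bind pyrimidine tracts and repress neuronal exons, Ptbp1 in precursors and Ptbp2 in young neurons. Both rose, and nonspecific IgG left both at the level of input. Ptbp1 was measured at 11.11, 11.03 and 11.16 in input, 11.15, 11.03 and 11.12 in IgG and 11.73, 11.66 and 11.68 in Pum2. Only the Pum2 arrays stood apart, with differences of 0.59 ± 0.07 from IgG and from input (adjusted p = 1.77e-04 and 1.17e-04). Ptbp2 was 11.74, 11.67 and 11.58 in input, 11.65, 11.63 and 11.74 in IgG and 12.04, 11.86 and 12.10 in Pum2. Its rise over IgG was 0.32 ± 0.09 (adjusted p = 0.016), and that call ended without IgG replicate 2 (0.30), without Pum2 replicate 1 (0.31) or 3 (0.27), and under centring on the brighter genes (0.23). Over input the rise was 0.33 ± 0.09 (adjusted p = 0.0118).

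Pcbp proteins bind poly(C) stretches and act on stability and translation. Of the 4, 3 rose against IgG and 1 fell. Pcbp4 gave 10.97, 10.93 and 10.95 in input, 10.42, 10.52 and 10.48 in IgG and 11.12, 11.18 and 11.05 in Pum2. IgG held the lowest values and Pum2 the highest, without overlap. Pum2 exceeded IgG by 0.64 ± 0.07 (adjusted p = 8.32e-05), with IgG at -0.48 ± 0.07 from input (adjusted p = 0.00121) and Pum2 at 0.17 ± 0.07 from input (adjusted p = 0.0913). Pum2 over input passed the threshold with quantile normalization over all features (0.19), with brighter genes only and with a trended prior (0.17 in both). Pcbp3 had the same order at a dimmer signal, with 6.84, 6.62 and 6.68 in input, 6.42, 6.19 and 6.39 in IgG and 6.73, 6.88 and 6.77 in Pum2. Its Pum2 arrays overlapped those of input and lay above IgG by 0.46 ± 0.09 (adjusted p = 0.00353), and IgG was below input by -0.38 ± 0.09 (adjusted p = 0.0175), a call lost without input replicate 1 (-0.31) or IgG replicate 2 (-0.30).

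Pcbp1, an intronless gene, was higher with Pum2 than with either control. It read 7.36, 7.41 and 7.57 in input, 7.39, 7.34 and 7.48 in IgG and 7.96, 7.71 and 7.90 in Pum2. The controls overlapped, and Pum2 exceeded them by 0.46 ± 0.09 and 0.41 ± 0.09 (IgG and input, adjusted p = 0.00378 and 0.00566). Pcbp2 ran the opposite way at 12.66, 12.66 and 12.63 in input, 12.94, 13.04 and 12.95 in IgG and 12.56, 12.57 and 12.44 in Pum2. IgG was the highest group here, above input by 0.32 ± 0.07 (adjusted p = 0.0103), and Pum2 was below IgG by -0.45 ± 0.07 (adjusted p = 7.78e-04) but within -0.13 ± 0.07 of input (adjusted p = 0.189). So within 1 family, the fall of Pcbp2 and the rise of Pcbp4 and Pcbp3 against IgG were measured where IgG itself differed from input in the other direction, whereas Pcbp1 showed no such call of IgG over input (-0.05 ± 0.09, adjusted p = 0.781).

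Khdrbs proteins and Qk share a KH-type RNA-binding domain and regulate splicing. Khdrbs1, known as Sam68, rose while its relatives Khdrbs2 and Khdrbs3 fell. Khdrbs1 was 9.95, 9.91 and 10.14 in input, 9.83, 10.06 and 10.06 in IgG and 10.53, 10.22 and 10.48 in Pum2. Pum2 replicate 2 lay closest to the controls, and the differences were 0.43 ± 0.11 from IgG and 0.41 ± 0.11 from input (adjusted p = 0.0121 and 0.0128). Without Pum2 replicate 1 the calls ended (0.37 and 0.35), as did the call against IgG with quantile normalization over the named genes (0.31). Khdrbs3 fell in every comparison, by -0.28 ± 0.07 from IgG, -0.63 ± 0.07 from input and -0.34 ± 0.07 in IgG over input (adjusted p = 0.0151, 9.37e-05 and 0.00904). The call against IgG ended without Pum2 replicate 1 (-0.24) or 2 (-0.26).

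The fall of Khdrbs2 was the smallest of those called (-0.25 ± 0.08, adjusted p = 0.0427). Its call ended without any 1 of the IgG or Pum2 arrays except IgG replicate 3, and without input replicate 3, with values between -0.27 and -0.22, and with quantile normalization over all features (-0.22). In IgG over input, Khdrbs2 rose by 0.28 ± 0.08 (adjusted p = 0.0413), and that call was lost without any single array other than IgG replicate 3, with values from 0.22 to 0.32. A fit of IgG and input alone lost it as well (0.28). Qk, which acts in glial and precursor cells, gave -0.15 ± 0.08 against IgG (adjusted p = 0.22), and in IgG over input its 0.25 ± 0.08 (adjusted p = 0.0571) passed the threshold without IgG replicate 1 (0.31), with quantile normalization over the named genes (0.31) or over all features (0.33), under centring on the brighter genes (0.28), with brighter genes only and with a trended prior (0.25 in both).

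**Figure D3:**
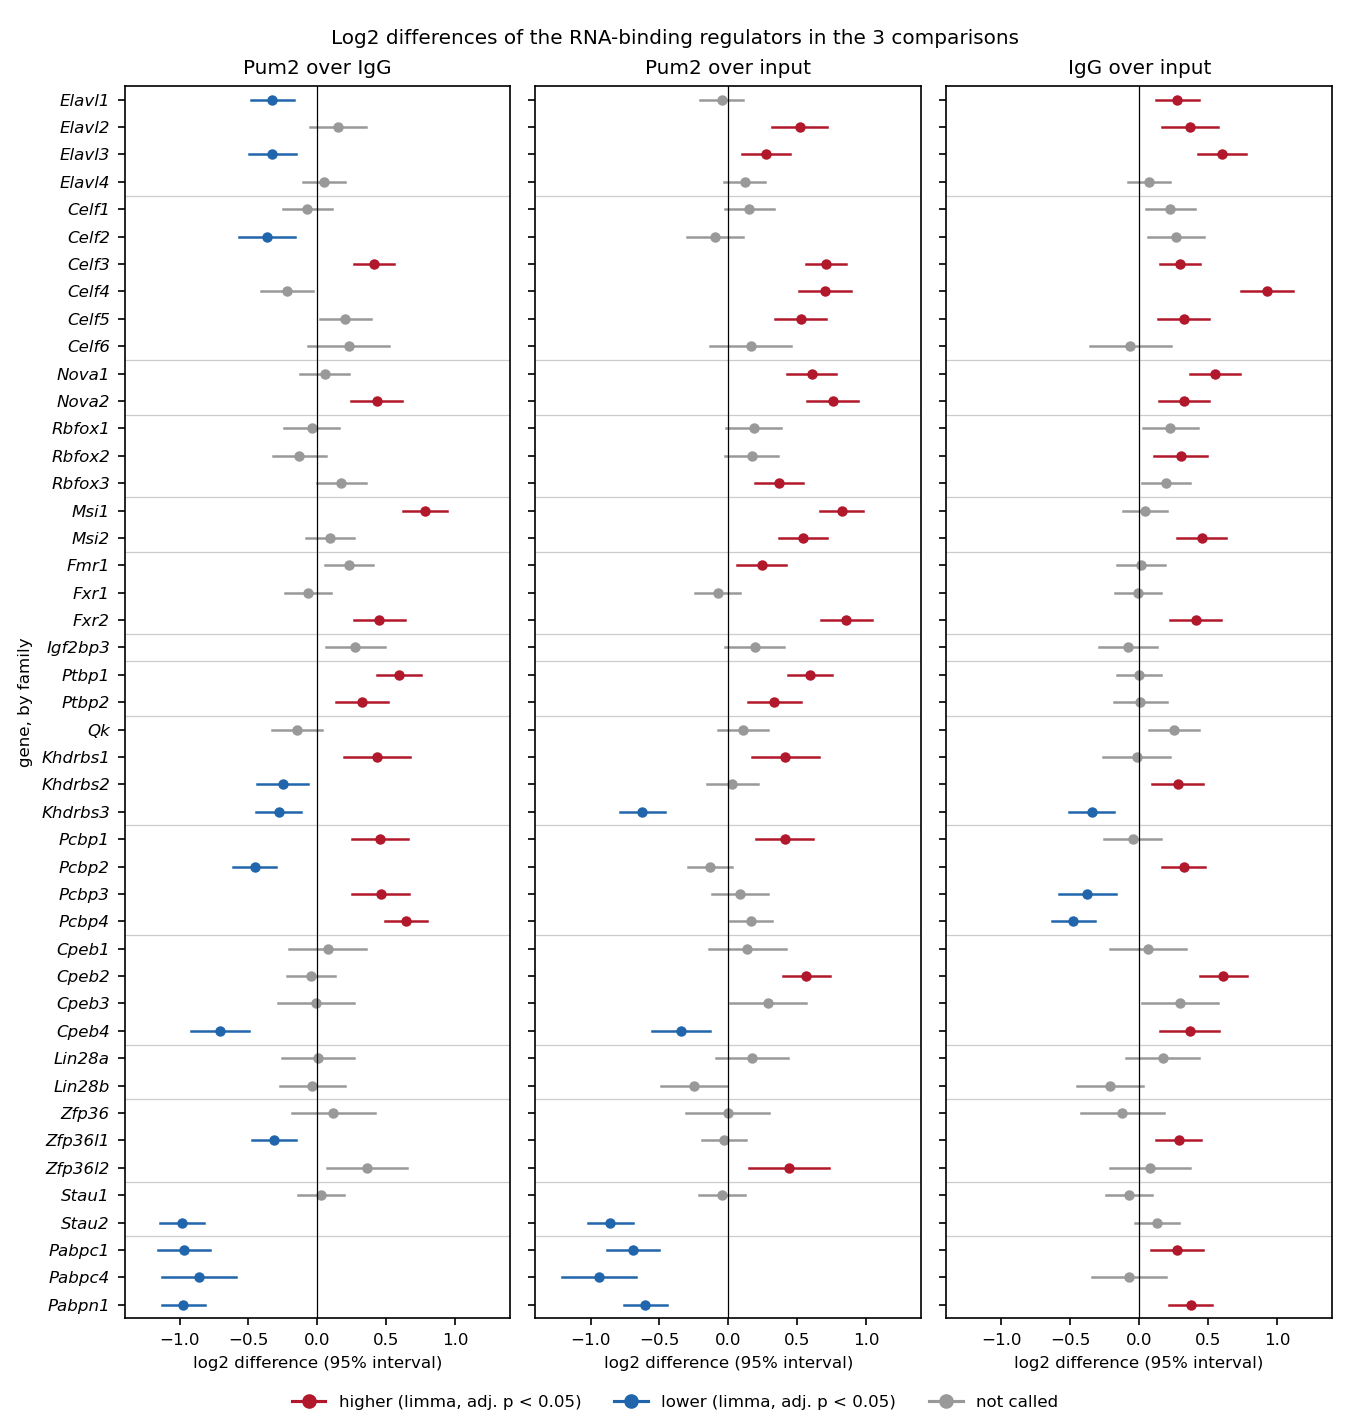
Points are log2 differences of the 45 genes in the 3 comparisons and lines their 95% intervals from limma; red marks genes called higher, blue lower and grey not called, and grey rules separate families. In Pum2 over IgG the extremes are Msi1 at 0.78 and Stau2 at -0.98, and in IgG over input most called genes lie to the right.

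Nova proteins control exons of synaptic genes, and Nova2 is the cortical form. Nova2 signals were 7.72, 7.64 and 7.52 in input, 8.001, 7.90 and 7.96 in IgG and 8.42, 8.46 and 8.28 in Pum2. The 3 groups formed 3 separate steps, with Pum2 over IgG by 0.43 ± 0.08 (adjusted p = 0.00274) and IgG over input by 0.33 ± 0.08 (adjusted p = 0.0209). A second feature of Nova2 also rose over IgG, by 0.54 ± 0.09 in the fit of all features, though it gave 0.01 ± 0.09 in IgG over input. The IgG over input call of Nova2 ended with the mean of both features (0.17), without input replicate 2 (0.33) or 3 (0.27), and without IgG replicate 1 (0.30) or 3 (0.32). Nova1 was level between precipitates (0.05, 95% interval -0.12 to 0.23), and above input by 0.60 ± 0.08 in Pum2 and 0.55 ± 0.08 in IgG (adjusted p = 2.04e-04 and 0.00126).

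Celf proteins bind GU-rich elements and act on splicing and decay. Of the 6, Celf3 rose against IgG and Celf2 fell. Celf3, a brain-restricted member, gave 10.18, 10.14 and 10.17 in input, 10.49, 10.42 and 10.48 in IgG and 10.83, 10.91 and 10.89 in Pum2. As with Nova2, the groups made 3 separate steps, of 0.41 ± 0.07 for Pum2 over IgG (adjusted p = 9.26e-04) and 0.30 ± 0.07 for IgG over input (adjusted p = 0.0107). Celf2 read 6.63, 6.54 and 6.69 in input, 6.78, 6.85 and 7.04 in IgG and 6.52, 6.43 and 6.62 in Pum2. Only the IgG arrays stood apart, though IgG over input was not called (0.27, adjusted p = 0.0702). Pum2 fell from IgG (-0.37 ± 0.09, adjusted p = 0.0114) and not detectably from input (-0.10 ± 0.09, adjusted p = 0.462). The call against IgG ended when the 2 features of Celf2 were averaged (-0.19), the other feature giving -0.01 ± 0.11, and with quantile normalization over all features (-0.17).

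Celf4, a neuronal regulator of excitability, had the largest rise of the 45 in IgG over input (0.93 ± 0.08, 1.9-fold, adjusted p = 1.69e-04). In Pum2 it exceeded input by 0.70 ± 0.08 (adjusted p = 1.08e-04). The 3 Pum2 arrays, 9.24, 9.24 and 9.29, lay between input at 8.44 to 8.68 and IgG at 9.40 to 9.59, and the difference from IgG was -0.22 ± 0.08 (adjusted p = 0.0733). That difference passed the threshold under centring on the brighter genes (-0.32) and under either quantile normalization (-0.35 over the named genes, -0.27 over all features). It also passed with brighter genes only and with a trended prior (-0.22 in both). Celf5 stood above input by 0.53 ± 0.08 in Pum2 and 0.32 ± 0.08 in IgG (adjusted p = 6.45e-04 and 0.0227), the latter call ending without input replicate 1 (0.28) or IgG replicate 1 (0.28) or 3 (0.32). Its difference between precipitates was 0.20 (adjusted p = 0.0946) and passed the threshold with brighter genes only. Celf1 and Celf6 were not called in any comparison, with -0.07 ± 0.08 and 0.23 ± 0.13 against IgG. Celf6 passed the threshold there with quantile normalization over all features (0.44), and Celf1 passed it in IgG over input without IgG replicate 1 (0.30), with quantile normalization over the named genes (0.28) or over all features (0.29), with brighter genes only and with a trended prior (0.23 in both).

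Rbfox proteins bind GCAUG and switch neuronal exons, and Rbfox3 is the neuronal marker NeuN. None of the 3 was called against IgG by limma, and 1, Rbfox3, had an unadjusted p below 0.05. Rbfox2, the brightest of them, was 9.41, 9.27 and 9.33 in input, 9.52, 9.64 and 9.77 in IgG and 9.58, 9.44 and 9.52 in Pum2. Pum2 and IgG arrays overlapped (-0.13 ± 0.09, adjusted p = 0.301), although the difference passed the threshold with quantile normalization over the named genes (-0.25). IgG exceeded input by 0.30 ± 0.09 (adjusted p = 0.0355), a call lost without input replicate 2 (0.27) or 3 (0.30), IgG replicate 2 (0.30) or 3 (0.24), or Pum2 replicate 3 (0.30). That call was also lost in a fit of IgG and input alone (0.30). Rbfox3 rose over input with Pum2 (0.37 ± 0.08, adjusted p = 0.0039), and its difference from IgG was 0.18 ± 0.08 (adjusted p = 0.127), which passed the threshold without Pum2 replicate 1 (0.25). Rbfox1 gave -0.04 ± 0.09 against IgG.

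Elavl proteins, or Hu proteins, bind AU-rich elements and stabilise mRNA. Elavl1, the ubiquitous HuR, and Elavl3, a neuronal form, fell against IgG by the same amount. Elavl1 was measured at 11.66, 11.63 and 11.64 in input, 11.88, 11.96 and 11.93 in IgG and 11.67, 11.53 and 11.58 in Pum2. Input and Pum2 overlapped below IgG, with -0.33 ± 0.07 from IgG (adjusted p = 0.00491) and -0.05 ± 0.07 from input (95% interval -0.20 to 0.11). Elavl3 gave 10.79, 10.83 and 10.87 in input, 11.40, 11.42 and 11.46 in IgG and 11.07, 10.998 and 11.23 in Pum2. Pum2 lay between the controls, at -0.33 ± 0.08 from IgG and 0.27 ± 0.08 from input (adjusted p = 0.00934 and 0.0199). The call over input ended without input replicate 1 (0.25) or 2 (0.27), without Pum2 replicate 3 (0.21), and under centring on the brighter genes (0.20).

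IgG itself exceeded input for Elavl3 by 0.60 ± 0.08 (adjusted p = 7.04e-04) and for Elavl1 by 0.28 ± 0.07 (adjusted p = 0.0191), the latter call ending without input replicate 2 (0.27) or 3 (0.27) or IgG replicate 2 (0.26) or 3 (0.27). Elavl2, a further neuronal form, rose over input by 0.52 ± 0.09 in Pum2 and 0.37 ± 0.09 in IgG (adjusted p = 0.00115 and 0.017), the IgG call being lost without input replicate 2 (0.30) or IgG replicate 3 (0.32). Its difference between precipitates was 0.15 ± 0.09 (adjusted p = 0.255). Elavl4 was not called in any comparison, at 0.05 ± 0.07 against IgG.

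Fmr1 encodes FMRP, the protein lost in fragile X syndrome, which slows translation of neuronal mRNAs, and Fxr1 and Fxr2 are its paralogs. Fxr2 was the called member. It gave 7.77, 7.63 and 7.56 in input, 8.05, 8.01 and 8.13 in IgG and 8.61, 8.50 and 8.43 in Pum2. The groups rose in separate steps, by 0.45 ± 0.08 for Pum2 over IgG and 0.41 ± 0.08 for IgG over input (adjusted p = 0.00228 and 0.0071), and Pum2 exceeded input 1.81-fold. Fmr1 was just short of the threshold against IgG (0.23 ± 0.08, adjusted p = 0.052) and just past it against input (0.24 ± 0.08, adjusted p = 0.0379). Its 3 Pum2 arrays, 10.52, 10.36 and 10.43, were above all 6 controls, which ran from 10.10 to 10.29. The call against IgG was gained without IgG replicate 3 (0.27), with brighter genes only and with a trended prior (0.23 in both). The call against input was lost without input replicate 1 (0.22) or 2 (0.24), without Pum2 replicate 1 (0.20) or 3 (0.24), and under centring on the brighter genes (0.17) or quantile normalization over the named genes (0.16). Fxr1 stayed within 0.08 of zero in each comparison, with a 95% interval of -0.23 to 0.10 against IgG.

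Igf2bp and Lin28 proteins belong to fetal tissue, where Igf2bp proteins stabilise mRNA and Lin28 proteins block let-7 maturation. Igf2bp3 gave 9.74, 9.74 and 9.73 in input, 9.60, 9.62 and 9.75 in IgG and 9.92, 9.75 and 10.12 in Pum2. Pum2 replicate 2 touched the IgG range, and the difference of 0.27 ± 0.10 was not called (adjusted p = 0.0544). It passed the threshold without Pum2 replicate 2 (0.36), a setting under which the difference from input passed as well (0.28). The difference from IgG also passed with brighter genes only and with a trended prior (0.27 in both). The shared feature of Igf2bp1 and Mir3063 stood at -0.09 ± 0.08 against IgG in the fit of all features (adjusted p = 0.44). Lin28a was dim at 5.73, 5.42 and 5.83 in input, 5.93, 5.78 and 5.78 in IgG and 6.005, 5.78 and 5.71 in Pum2. Its groups overlapped, with 0.00 ± 0.12 against IgG, and Lin28b gave -0.04 ± 0.11.

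Zfp36 proteins bring deadenylases to AU-rich mRNAs. Zfp36l1, abundant in cortical precursors, read 11.73, 11.73 and 11.69 in input, 11.96, 12.06 and 11.98 in IgG and 11.59, 11.74 and 11.73 in Pum2. As for Elavl1, IgG alone stood apart, above input by 0.29 ± 0.07 and above Pum2, whose difference was -0.31 ± 0.07 (adjusted p = 0.0205 and 0.0076). The dimmer feature of Zfp36l1 did not show this order. In the limma fit of all features it was called lower in Pum2 than in input (-0.55 ± 0.13, adjusted p = 0.011). It gave -0.37 ± 0.13 in IgG over input and -0.18 ± 0.13 against IgG (adjusted p = 0.104 and 0.348). With both features averaged the difference between precipitates was -0.25 (adjusted p = 0.054). That of Pum2 over input was then -0.29 and passed the threshold, and that of IgG over input turned to -0.04. The IgG over input call was also lost without input replicate 2 (0.29) or 3 (0.27) or IgG replicate 2 (0.26). Zfp36l2 rose over input with Pum2 (0.44 ± 0.13, adjusted p = 0.0244) and missed the threshold against IgG (0.36 ± 0.13, adjusted p = 0.0623). The former was lost without input replicate 1 (0.34) or 2 (0.46) or Pum2 replicate 2 (0.32), and under centring on the brighter genes (0.37). The call against IgG was gained without input replicate 1 (0.36), with brighter genes only (0.36) and with quantile normalization over all features (0.57). Zfp36, an early-response gene also called tristetraprolin, gave 0.12 ± 0.13.

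**Figure D4:**
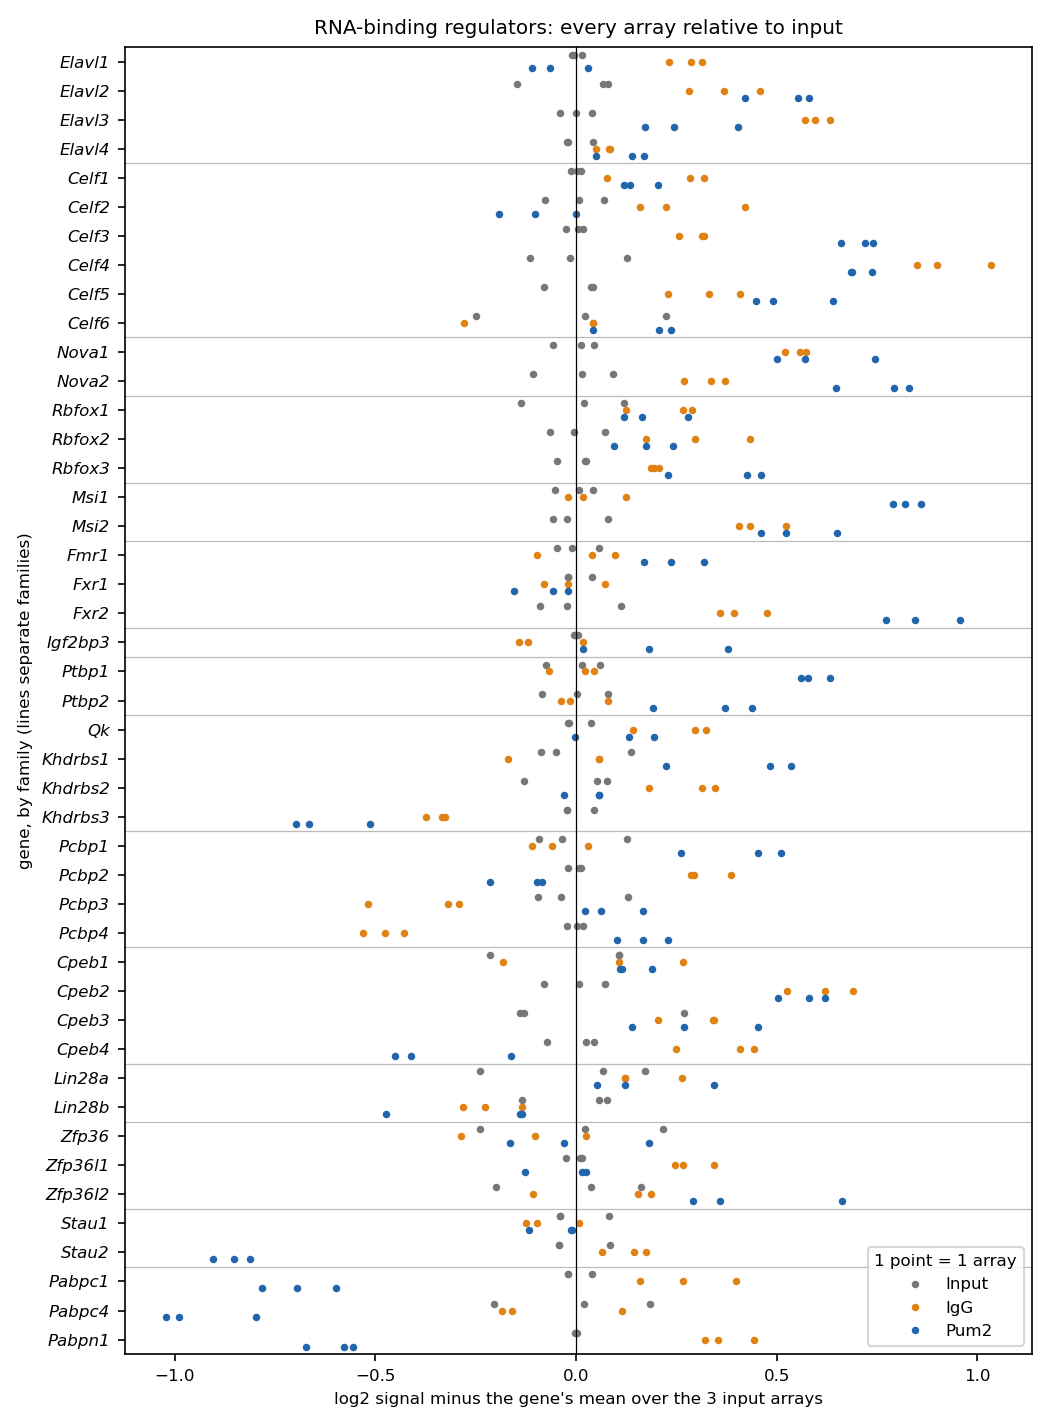
Each point is 1 array, placed by its log2 signal minus the mean of the 3 input arrays for that gene (grey input, orange IgG, blue Pum2), with the 45 genes listed by family. The IgG points of Elavl3, Celf4, Nova1, Msi2 and Cpeb2 lie to the right of input, whereas those of Msi1, Ptbp1 and Stau2 lie on or near it.

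Compared with input, 18 of the 45 genes were higher in the Pum2 precipitate and 6 lower, where 21.6% of all genes were called higher and 13.1% lower. The share of higher calls among all called genes, 62.3%, became 52.2% when brighter genes set the centre of each array, and 76.6% with quantile normalization over all features. Among genes no dimmer than the median gene the 41 bright members gave 43.9% higher and 14.6% lower, against 37% and 21.9% of all such genes. The largest rises over input were those of Fxr2 (0.86 ± 0.08), Msi1, Nova2 (0.76 ± 0.08), Celf3 (0.71 ± 0.07) and Celf4. The 6 that fell were Pabpc4, Stau2, Pabpc1, Khdrbs3, Pabpn1 and Cpeb4. At 1.5-fold or more, 7 were higher (8.31% of all genes) and 5 lower (6.97%). The median difference of the 45 was 0.17 and that of all genes 0.065.

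Nonspecific IgG also differed from input. In this comparison, which holds no antibody to Pum2, 18 of the 45 were higher and 3 lower, against 8.25% higher and 9.72% lower among all genes. Among genes no dimmer than the median gene, 43.9% of the 41 members and 13.8% of all genes were higher. The genes that rose were Elavl1, Elavl2, Elavl3, Celf3, Celf4, Celf5, Nova1, Nova2, Rbfox2, Msi2, Fxr2, Khdrbs2, Pcbp2, Cpeb2, Cpeb4, Zfp36l1, Pabpc1 and Pabpn1. Those that fell were Pcbp4, Pcbp3 and Khdrbs3. Celf4, Cpeb2 and Elavl3 rose at least 1.5-fold, as did 1.9% of all genes. The median difference was 0.23, where all genes gave 0.016. With input replicate 2 left out, 11 members were called higher, and 1334 of the 22180 genes in place of 1829. With any 1 array left out, 11 to 16 members were called higher, and 1334 to 1706 of all genes.

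Values for the same gene in the 3 comparisons share arrays and are given side by side without a test. The share of all genes with each pattern of calls was not counted. The patterns below therefore cannot be read as particular to these genes. Msi1, Ptbp1, Ptbp2, Khdrbs1 and Pcbp1 were called higher with Pum2 against either control and not called in IgG over input. Stau2 and Pabpc4 were called lower against either control and not called in IgG over input. Celf3, Nova2 and Fxr2 were called higher against either control, and IgG was called higher than input as well. Elavl1, Pcbp2, Zfp36l1 and Khdrbs2 were called lower than IgG and not called against input, and for each of these 4 IgG was called higher than input. The mirror case was Pcbp3 and Pcbp4, called higher than IgG only and with IgG called lower than input. Elavl2, Celf4, Celf5, Nova1, Msi2 and Cpeb2 were called higher than input in either precipitate and not called between them. No call was made in any comparison for 13 genes: Elavl4, Celf1, Celf6, Rbfox1, Fxr1, Igf2bp3, Qk, Cpeb1, Cpeb3, Lin28a, Lin28b, Zfp36 and Stau1.

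A list of 30 other RNA-binding proteins, which act in splicing, stress granules and translation, had 26 genes with a feature of their own. Against IgG 4 rose (15.4%, beside 19.4% of all genes) and 3 fell (11.5%, beside 11.4%), with a median of 0.10. Against input 10 rose (38.5%, beside 21.6%) and 1 fell (3.85%, beside 13.1%), with a median of 0.19. All 26 lay above the median signal of all genes. Among genes at or above it, 34.1% were called higher and 18% lower against IgG. Those shares were 37% and 21.9% against input, and 13.8% and 17.8% in IgG over input. Khsrp, a decay factor of AU-rich mRNAs, rose most against IgG (0.55 ± 0.08, adjusted p = 7.95e-04). G3bp1, a stress-granule protein gene, rose by 0.33 ± 0.11, Hnrnpa2b1 by 0.27 ± 0.09 and Syncrip by 0.25 ± 0.08. Ybx1, which packages mRNA in the cytoplasm, fell in Pum2, with -0.80 ± 0.08 from IgG and -0.94 ± 0.08 from input, and Larp1 and Mbnl2 fell against IgG (-0.29 ± 0.08 and -0.27 ± 0.08). In IgG over input 6 rose (23.1%, beside 8.25% of all genes), led by Srrm4, a neuronal splicing activator (0.75 ± 0.09, adjusted p = 5.53e-04), and the lowest difference was -0.20 ± 0.14 for Caprin1 (adjusted p = 0.384).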

How the data were processed

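RNA of input, IgG and Pum2 precipitates (3 arrays each) was read on Mouse Gene 2.0 ST arrays. The authors deposited RMA log2 values made with Affymetrix Expression Console, per the submitters' processing notes; its version and the genome build are not stated in the sources. RMA includes a step that equalises arrays, so a change shared by most transcripts may be reduced; a difference between groups in the median over all features remained in the deposited values. Of 41345 features, 23521 carried 1 gene symbol in the platform annotation, 1814 several and 16010 none, and the brightest feature was read for each of 22180 genes. The 3 groups were fitted together with limma 3.58.1 in R 4.3.3 (lmFit, contrasts, eBayes, 6 residual degrees of freedom), with Benjamini-Hochberg adjustment over all 22180 genes and a threshold of 0.05. The calling was also run on simulated data with independent noise for each gene. That simulation held no scaling shift shared by many genes, so it cannot speak to the effect of scaling. An exact permutation test of 3 arrays against 3 cannot go below p = 0.1 and was not used.

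Precision is limited by the small number of arrays. The labels call the replicates biological without naming litters, so p-values measure the spread between these arrays. The 47 genes and the lists were chosen with earlier results of these data known. Values on every array are given for genes called against IgG with arrays that do not overlap, up to 10 in each direction, and for the brightest gene of a family with none; Stau1 and other genes given by array beyond these were added after their values were seen. Probes of close paralogs may cross-hybridise, which was not tested. The alternatives tried were the replicate number as a block, a fit of the compared pair alone, brighter genes only, another prior, other scalings, averaged features and leaving out each array; quantile normalization over all features was added after seeing the data.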

Additional observations from a re-analysis of the deposited data

How the results depend on the processing

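Under 17 alternatives, 16 of the 22 members called between Pum2 and IgG kept their call and direction, as did 19 of 24 for Pum2 over input and 11 of 21 for IgG over input, and 8, 8 and 4 further members were called under some alternative. Scaling moved the median difference of all genes, which was 0.043 against IgG and 0.065 against input as deposited. It became 0.026 and 0.029 with quantile normalization over the named genes. With centring on the brighter genes it was -0.051 and -0.005, and with quantile normalization over all features 0.192 and 0.189. The members' median difference moved as well. Against IgG it was -0.036 with quantile normalization over the named genes, -0.070 when brighter genes set the centre of each array, and 0.108 with quantile normalization over all features, against input 0.127, 0.10 and 0.25, and for IgG over input 0.261 and 0.251 with the first and second of these and 0.166 with averaged features. Leaving out 1 array gave 0.150 to 0.198 for Pum2 over input and 0.193 to 0.255 for IgG over input. In the latter 11 to 16 members were called higher, and 1334 to 1706 of all genes in place of 1829. Quantile normalization over all features called 8093 genes higher against IgG in place of 4296, and 7845 against input in place of 4793. Zfp36l1 in IgG over input turned from 0.29 to -0.040 with averaged features, because its 2 features differ in direction.

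The labels do not say what a shared replicate number marks, so no pairing was assumed. Deviations of same-numbered arrays correlated at 0.002 to 0.135 in 9 pairs, 3 of them over 0.1, and those of differently numbered arrays at -0.130 to 0.041 in 18. Of 18 comparisons of an array with another group, 16 were highest at the same number, a hint of pairing from the data and not from the design. Each correlation entered in both directions, and the 3 deviations of a group cancel out, so the 18 are not independent. With the replicate number as a block, 12 members were higher and 11 lower against IgG, 18 and 6 against input, and 16 and 3 for IgG over input. Of all 22180 genes, the block called 4344 and 2521, 4855 and 2910, and 1856 and 2170 in the same order. The block added the calls of Igf2bp3 and Zfp36l2 against IgG, Cpeb3 over input and Celf2 in IgG over input. It ended those of Khdrbs2 against IgG, Fmr1 over input, and Rbfox2, Khdrbs2 and Pabpc1 in IgG over input. Cpeb1, Cpeb3, Lin28a and Lin28b lay below the median signal of all genes, and their signal over background was not measured here.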

Other observations

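Some array features carry the symbol of a member together with that of another gene, so their values belong to no single gene. In a fit of all 41345 features, the feature shared by Fxr1, Dnajc19 and Dnajc19-ps fell in the Pum2 precipitate by much more than any member, at -2.15 ± 0.18 from IgG and -1.73 ± 0.18 from input (limma adjusted p = 7.66e-05 and 1.49e-04), while the feature of Fxr1 alone was not called. One feature shared by Pabpc4 and Gm5088 fell by a similar amount to that of Pabpc4 alone (-0.92 ± 0.09 from IgG, adjusted p = 1.51e-04), and the other was level (0.05 ± 0.07). Of 2 features shared by Qk and Cahm, one fell against IgG (-0.37 ± 0.10, adjusted p = 0.0292) and the other gave 0.42 ± 0.15 (adjusted p = 0.065).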
